A study of Mus musculus with 8 samples.

Results

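Mrc1, Il10, Tgfb1, Vegfa and Tgfbi are 5 of the 100 genes on an in situ hybridization panel, and are usually counted among the factors that restrain immunity or build vessels in gliomas. They were taken by name, with earlier results of these sections known, and every molecule called for them was used. The panel was read with Resolve single-molecule fluorescence in situ hybridization, which lists the position of each transcript molecule seen in a tissue section. The 8 sections were mouse brain hemispheres carrying GL261 glioma, a mouse tumour line that grows in mice of its strain of origin, and were collected at day 21. Every mouse had the tumour and received 4 intracranial treatments. The agents were the combination of CpG-STAT3ASO and anti-PD1 (2 sections), CpG-STAT3ASO alone (2 sections), anti-PD1 alone (2 sections) or the vehicle PBS (2 sections). By its name CpG-STAT3ASO joins a CpG oligonucleotide, a ligand of Toll-like receptor 9, to an antisense oligonucleotide against Stat3, and anti-PD1 is an antibody that blocks a T cell checkpoint receptor. The sources used here state neither strain, age, sex nor how many animals were used. Since the labels leave it unsaid whether the 2 sections of a treatment came from separate mice, the p values cover the spread among these sections alone.

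Mrc1 is the mannose receptor CD206, a surface lectin used as a marker of alternatively activated and border-associated macrophages. Il10 is a cytokine that dampens macrophage and dendritic cell activation and signals through STAT3. Tgfb1 is secreted in a latent form and, once activated, signals through SMAD proteins. Tgfbi is a matrix protein named for its induction by TGF-beta and is made by macrophages as well as tumour cells. Vegfa drives vessel growth and is induced by hypoxia. Markers of macrophages are on the panel, but no gene specific to endothelial cells, astrocytes, neurons or oligodendrocytes.

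In mouse build GRCm38.p6 Mrc1 lies on chromosome 2 (14229414 to 14332023), Il10 on chromosome 1 (131019845 to 131024970), Tgfb1 on chromosome 7 (25687002 to 25705077), Vegfa on chromosome 17 (46016993 to 46032377) and Tgfbi on chromosome 13 (56609586 to 56639359). The 250 bases before the start of Tgfb1, Tgfbi and Vegfa are printed here because of their correlations over tissue bins of equal total. Tgfb1 and Tgfbi varied together, while Vegfa and either of them tended to vary in opposite directions. False-positive codes, which should mark no transcript, had negative medians of like size with Tgfb1 and Tgfbi. The printed windows come from RefSeq and run 5′ to 3′ on the strand of the gene. Capitals mark GGGCGG, the GC box bound by Sp1 family factors, and CAGAC, the core of a SMAD binding element, each searched on both strands.
Tgfb1, chr7:25686752-25687001, plus strand: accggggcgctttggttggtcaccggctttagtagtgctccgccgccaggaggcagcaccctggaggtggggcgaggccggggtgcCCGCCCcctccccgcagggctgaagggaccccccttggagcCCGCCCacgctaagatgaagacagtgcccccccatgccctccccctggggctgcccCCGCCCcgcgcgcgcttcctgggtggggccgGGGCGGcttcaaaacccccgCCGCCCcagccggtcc
Tgfbi, chr13:56609336-56609585, plus strand: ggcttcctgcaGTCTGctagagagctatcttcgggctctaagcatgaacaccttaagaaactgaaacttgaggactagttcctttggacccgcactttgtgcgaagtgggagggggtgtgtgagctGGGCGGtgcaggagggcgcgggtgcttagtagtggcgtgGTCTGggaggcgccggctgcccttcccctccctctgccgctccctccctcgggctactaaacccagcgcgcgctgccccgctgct
Vegfa, chr17:46032378-46032627, minus strand: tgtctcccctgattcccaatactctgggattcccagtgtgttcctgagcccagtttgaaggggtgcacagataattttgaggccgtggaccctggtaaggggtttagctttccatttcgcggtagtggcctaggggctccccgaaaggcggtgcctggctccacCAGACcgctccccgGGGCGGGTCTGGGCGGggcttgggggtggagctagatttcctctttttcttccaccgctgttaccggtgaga
The Tgfb1 window held 5 GC boxes and no SMAD core, at a GC content of 75.2%. The Tgfbi window held 2 SMAD cores and 1 GC box, at 62.4% GC. The Vegfa window held 2 SMAD cores and 2 GC boxes, of which 1 of each overlap by 1 base, at 59.2% GC. The STAT motif TTCNNNGAA and the hypoxia element core ACGTG were searched in the same way and were found in none of the 3 windows. A second Vegfa window of the RefSeq set (chr17:46025164-46025413, not printed) held 1 hypoxia core. Among all 32851 promoter windows of the RefSeq set, the GC box was present in 32.7%, the SMAD core in 42.2%, the STAT motif in 7.02% and the hypoxia core in 16.6%. These matches describe the letters and are not measured binding sites.

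A section held 1669939 to 3927955 molecules with CpG-STAT3ASO, alone or in the combination, against 4195896 to 6995401 without it. False-positive codes made up 0.106 to 0.306% of the molecules. Molecules were counted in square bins of 360 pixels, of which 2175 to 2405 with CpG-STAT3ASO, against 2155 to 2358 without it, held tissue (at least 20 molecules). Bins are called dense here when they held 100 or more molecules of Mki67 and Birc5, both markers of dividing cells, and low-proliferation when they held under 10. Sections with CpG-STAT3ASO had 22 to 78 dense bins scattered over 20 to 46 groups, against 714 to 1090 dense bins in 2 to 10 groups without it. Stat3, the antisense target, measured 42709 and 29714 CPM (the gene's share of a section's molecules times 1e6) in the combination, 35091 and 39603 with CpG-STAT3ASO, 55402 and 68368 with anti-PD1 and 56439 and 61479 with PBS. Its level was lower in all 4 sections with CpG-STAT3ASO than in the other 4, but the fit left the difference short of the threshold (log2 difference -0.72, SE 0.42, limma adjusted p = 0.189).

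Across whole sections no difference with CpG-STAT3ASO in the share of all molecules passed the test for any of the 5 genes. Mrc1 measured 949 and 261 CPM in the combination, 1211 and 324 CPM with CpG-STAT3ASO, 629 and 640 CPM with anti-PD1 and 566 and 506 CPM with PBS. The sections with CpG-STAT3ASO lay on both sides of the narrow range of the other 4, and averaged 686 ± 468 CPM, against 585 ± 62.0 CPM without it (SD, n = 4 each). Each treatment with CpG-STAT3ASO thus held 1 section high and 1 low in Mrc1, with means of 605 ± 486 CPM in the combination and 768 ± 627 CPM with CpG-STAT3ASO, against 634 ± 8.03 CPM with anti-PD1 and 536 ± 42.3 CPM with PBS (SD, n = 2 each). Fewer cells of a type and less RNA per cell cannot be told apart in such totals.

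Tgfb1 was the steadiest of the 5. It measured 12522 and 10891 CPM in the combination, 13518 and 10722 CPM with CpG-STAT3ASO, 8421 and 10273 CPM with anti-PD1 and 11239 and 9474 CPM with PBS. Its mean was 11913 ± 1343 CPM with CpG-STAT3ASO and 9852 ± 1196 CPM without it (SD, n = 4 each), with ranges that overlapped only through 1 PBS section. Tgfbi measured 11786 and 32107 CPM in the combination, 18199 and 16013 CPM with CpG-STAT3ASO, 17296 and 10180 CPM with anti-PD1 and 11651 and 14024 CPM with PBS. The second combination section was the highest and the first lay within the range of sections without CpG-STAT3ASO.

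Vegfa measured 30820 and 12935 CPM in the combination, 27853 and 26593 CPM with CpG-STAT3ASO, 17333 and 30091 CPM with anti-PD1 and 26737 and 14917 CPM with PBS. Both combination sections lay outside the range of all others, 1 above it and 1 below it, so the treatments overlapped fully. Il10 was rare, with 84 and 329 molecules in the combination, 102 and 182 with CpG-STAT3ASO, 529 and 271 with anti-PD1 and 212 and 752 with PBS. It ranked 81 to 91 of 100 genes in a section. Its count was above the interpolated 90th percentile of the 28 false-positive codes in 5 of the 8 sections (3 with CpG-STAT3ASO and 2 without). From 1 to 4 codes were at or above Il10 in each section. Its share was 67.6 ± 14.8 CPM with CpG-STAT3ASO and 70.1 ± 29.6 CPM without it (SD, n = 4 each).

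**Figure D1:**
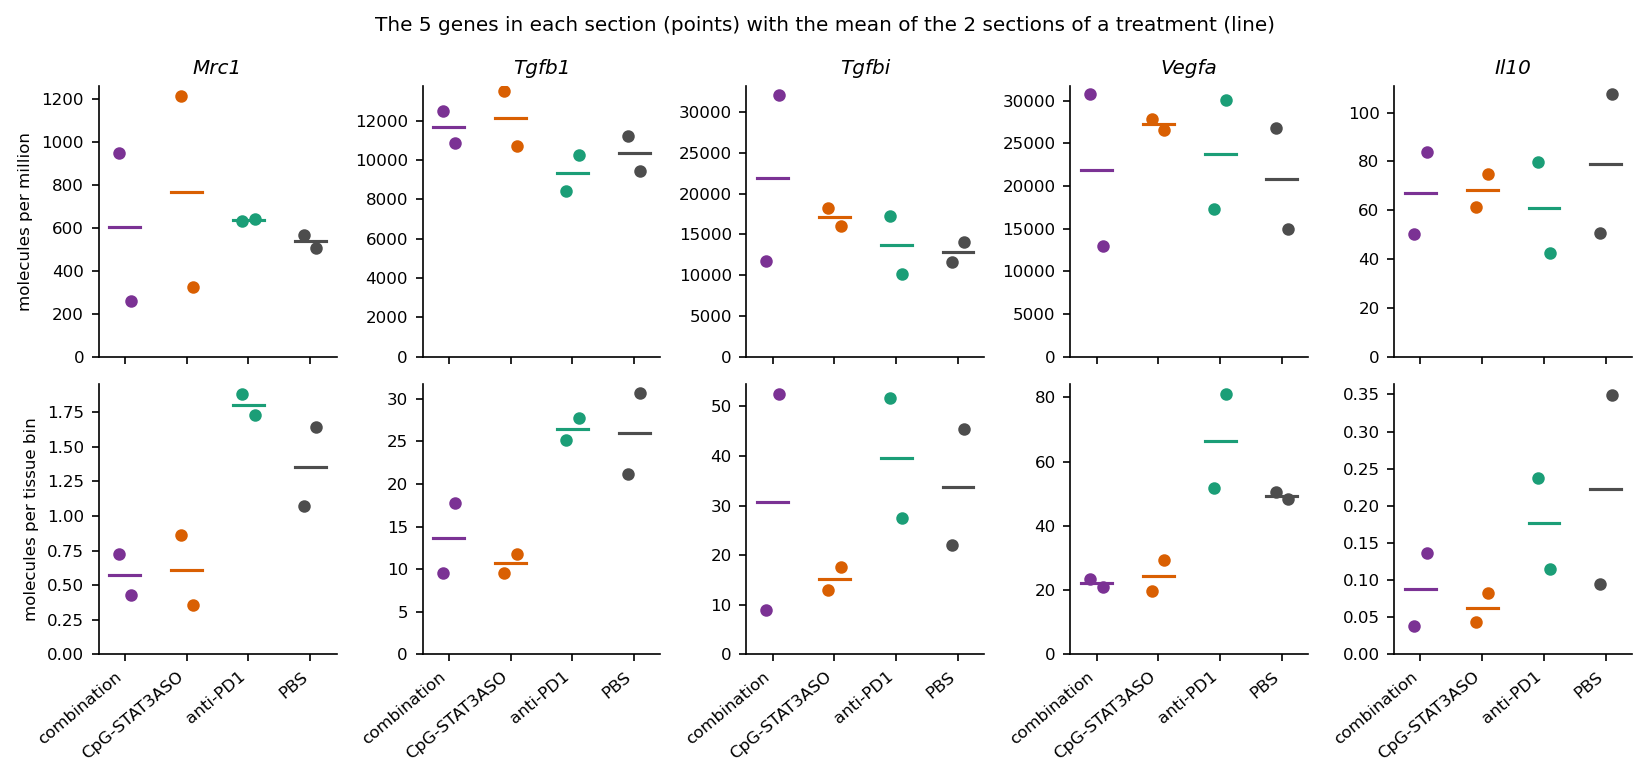
Levels of the 5 genes in each section, as CPM (top row) and as molecules per tissue bin (bottom row), by treatment. Points are sections and lines the mean of 2; Mrc1, Tgfb1 and Vegfa lie lower per bin in all 4 sections with CpG-STAT3ASO, while the shares overlap for each gene.

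In the comparison of sections with CpG-STAT3ASO, averaged over anti-PD1, with those without, 0 of the 5 genes passed by share, against 43% of all genes tested (35 of 100 higher and 8 lower). The log2 differences were -0.06 (SE 0.53) for Mrc1, 0.02 (SE 0.54) for Il10, 0.28 (SE 0.33) for Tgfb1, 0.13 (SE 0.41) for Vegfa and 0.48 (SE 0.39) for Tgfbi, and the lowest limma adjusted p was 0.339 (unadjusted p = 0.231). The median gene stood at 0.63, above each of the 5. Without 1 section the Tgfbi difference ran from 0.12 to 0.85, the highest being without the first combination section.

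Counted per tissue bin, without dividing by the total, the picture was different, since sections with CpG-STAT3ASO held fewer molecules of most genes. Mrc1 had 0.726 and 0.425 molecules per bin in the combination and 0.861 and 0.357 with CpG-STAT3ASO, against 1.88 and 1.73 with anti-PD1 and 1.07 and 1.64 with PBS. Tgfb1 had 9.59 and 17.8 molecules per bin in the combination and 9.62 and 11.8 with CpG-STAT3ASO, against 25.2 and 27.7 with anti-PD1 and 21.2 and 30.7 with PBS. Vegfa had 23.6 and 21.1 molecules per bin in the combination and 19.8 and 29.3 with CpG-STAT3ASO, against 51.8 and 81.2 with anti-PD1 and 50.5 and 48.4 with PBS.

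For these 3 genes the sections with and without CpG-STAT3ASO did not overlap. By this measure Mrc1 fell by 1.47 on the log2 scale (SE 0.45, limma adjusted p = 0.0438), Tgfb1 by 1.14 (SE 0.28, adjusted p = 0.0206) and Vegfa by 1.29 (SE 0.27, adjusted p = 0.0115). Il10 (-1.37, SE 0.67) and Tgfbi (-0.93, SE 0.58) did not pass, at adjusted p = 0.15 and 0.237. The 3 of 5 stand against 31% of all genes (29 of 100 lower, 2 higher), with the median gene at -0.77. The second combination section had 52.4 molecules of Tgfbi per tissue bin, the highest of all 8, while the other 3 sections with CpG-STAT3ASO had 9.02 to 17.6, below the 22.0 to 51.7 of the sections without it.

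No difference with anti-PD1 passed for any of the 5 genes. By share 0 of 5 passed for anti-PD1 against PBS, where 1% of all genes did, and the lowest limma adjusted p among the 5 was 0.975. None of the 5 passed for anti-PD1 averaged over CpG-STAT3ASO, for the combination against CpG-STAT3ASO or for the interaction of both agents, comparisons in which 0% of all genes passed with limma and 1, 2 and 3 genes had an unadjusted p under 0.05. The same held for the combination against PBS, where 18% of all genes passed, the combination against anti-PD1, where 28% did, and CpG-STAT3ASO against PBS, where 25% did. These comparisons share sections. Per tissue bin Vegfa passed in the combination against anti-PD1 (log2 difference -1.54, limma adjusted p = 0.038, 14% of all genes), and no other of the 5 passed in any of these 7 comparisons. By that measure 12% of all genes passed for CpG-STAT3ASO against PBS, 4% for the combination against PBS and 0% in the remaining comparisons.

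Within sections without CpG-STAT3ASO the 5 genes differed sharply in where they lay relative to the dense bins, which hold most of the proliferating tumour. Dense bins held 91.6 and 95.001% of Tgfbi molecules with anti-PD1 and 84.1 and 91.2% with PBS. They held 84.2 and 89.9% of Tgfb1 with anti-PD1 and 79.4 and 86.4% with PBS. For Mrc1 the values were 80.5 and 87.3% with anti-PD1 and 74.6 and 85.01% with PBS, and for Vegfa 66.25 and 83.9% with anti-PD1 and 65.0 and 74.9% with PBS. The order Tgfbi, Tgfb1, Mrc1, Vegfa was the same in the 4 sections. The rare Il10 varied more, with 93.6 and 92.25% in dense bins with anti-PD1 and 70.3 and 91.9% with PBS.

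Per bin, Tgfbi had 127 and 56.4 molecules in dense bins with anti-PD1 and 57.5 and 92.6 with PBS, against 2.67 and 1.34 molecules in low-proliferation bins with anti-PD1 and 1.85 and 2.16 with PBS. The lowest dense value was far above the highest low-proliferation value. Vegfa had 92.3 and 147 molecules per dense bin with anti-PD1 and 102 and 80.9 with PBS, against 28.9 and 24.4 per low-proliferation bin with anti-PD1 and 25.7 and 22.4 with PBS. Vegfa was thus higher per bin in dense bins in each section, yet present throughout the low-proliferation tissue.

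Dense bins hold more molecules of nearly all genes, and by share of the molecules the 5 genes split in direction. In dense against low-proliferation bins, with the section as block, Tgfbi rose 5.10-fold (log2 difference 2.35, SE 0.17, limma adjusted p = 0.000101), Il10 rose by 1.503 (SE 0.41, adjusted p = 0.0212) and Tgfb1 by 0.63 (SE 0.18, adjusted p = 0.023). Vegfa fell by 0.96 (SE 0.22, limma adjusted p = 0.0109) and Mrc1 did not pass (0.09, SE 0.22, adjusted p = 0.762). These 4 of 5 stand against 54.2% of all genes tested (25 higher and 27 lower of 96). Per bin all 5 rose, by 5.34 for Tgfbi, 4.29 for Il10, 3.62 for Tgfb1, 3.07 for Mrc1 and 2.03 for Vegfa on the log2 scale, as did most of the 94.8% of all genes that passed by that measure. The median gene stood at 3.05, above Vegfa and level with Mrc1.

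Of the 4 called genes only Tgfbi kept its call by share when any of the 4 sections was left out. Il10 lost it without anti-PD1 replicate 1 (log2 difference 1.26, limma adjusted p = 0.0986). Tgfb1 lost it without PBS replicate 1 (0.56, adjusted p = 0.0666), anti-PD1 replicate 1 (0.65, adjusted p = 0.0855) or anti-PD1 replicate 2 (0.62, adjusted p = 0.0882), and Vegfa without anti-PD1 replicate 1 (-0.78, adjusted p = 0.0501). For Il10 the density per bin in dense bins was 11.1 to 44.1 times that in low-proliferation bins. False-positive codes had the same direction, with medians of 8.67 to 15.2 times and highest values of 54.3 to 247 times in the 4 sections, so the Il10 gradient lay within the range of codes that should mark no transcript.

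The change began outside the dense bins. Within 4 bins outside the dense edge, called the margin, Tgfbi had 22.7 and 5.46 molecules per bin with anti-PD1 and 12.1 and 24.7 with PBS, against 1.52 and 0.776 in distant tissue (10 or more bins away) with anti-PD1 and 1.52 and 1.08 with PBS. Tgfb1 had 13.4 and 7.74 molecules per bin at the margin with anti-PD1 and 11.8 and 12.05 with PBS, against 3.57 and 2.98 in distant tissue with anti-PD1 and 3.05 and 5.38 with PBS. Vegfa had 21.1 and 22.2 molecules per bin at the margin with anti-PD1 and 25.2 and 16.8 with PBS, against 30.8 and 24.9 in distant tissue with anti-PD1 and 26.9 and 24.98 with PBS. Margin and distant values did not overlap for Tgfbi and Tgfb1, and did for Vegfa. The margin still held dividing cells, with 22.9 to 35.5 molecules of the 3 proliferation genes per bin, against 1.02 to 2.10 in distant tissue. In its low-proliferation bins alone Tgfbi had 2.03 to 10.2 molecules per bin, against 0.780 to 1.52 in distant low-proliferation bins. The part of proliferating tissue in the margin difference was not tested.

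By share, Tgfbi rose 7.88-fold at the margin (log2 difference 2.98, SE 0.35, limma adjusted p = 0.000589), Il10 rose by 2.07 (SE 0.59, adjusted p = 0.017) and Tgfb1 by 1.02 (SE 0.28, adjusted p = 0.0133). Vegfa fell by 0.92 (SE 0.28, limma adjusted p = 0.0202) and Mrc1 did not pass (-0.56, SE 0.34, adjusted p = 0.176). The 4 of 5 stand against 62.4% of all genes, with the median gene at 0.92. Per bin Tgfbi (log2 difference 3.55), Il10 (2.62) and Tgfb1 (1.60) passed, against 67.7% of all genes, and Vegfa (-0.34) and Mrc1 (0.01) did not.

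Tgfbi kept its call at the margin by share without any 1 of the 4 sections. Il10 lost it without PBS replicate 1 (1.89, limma adjusted p = 0.115) or PBS replicate 2 (1.75, adjusted p = 0.0513). Tgfb1 lost it without PBS replicate 1 (0.91, adjusted p = 0.0821) or anti-PD1 replicate 1 (1.03, adjusted p = 0.0523), and Vegfa without the same sections (-0.9986, adjusted p = 0.0821, and -0.74, adjusted p = 0.129). Between the interior of the dense tissue (4 or more bins inside its edge) and its rim no difference passed for any of the 5 genes. That comparison called 0% of all genes by share or per bin with limma, where 7 genes by share and 14 per bin had an unadjusted p under 0.05.

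**Figure D2:**
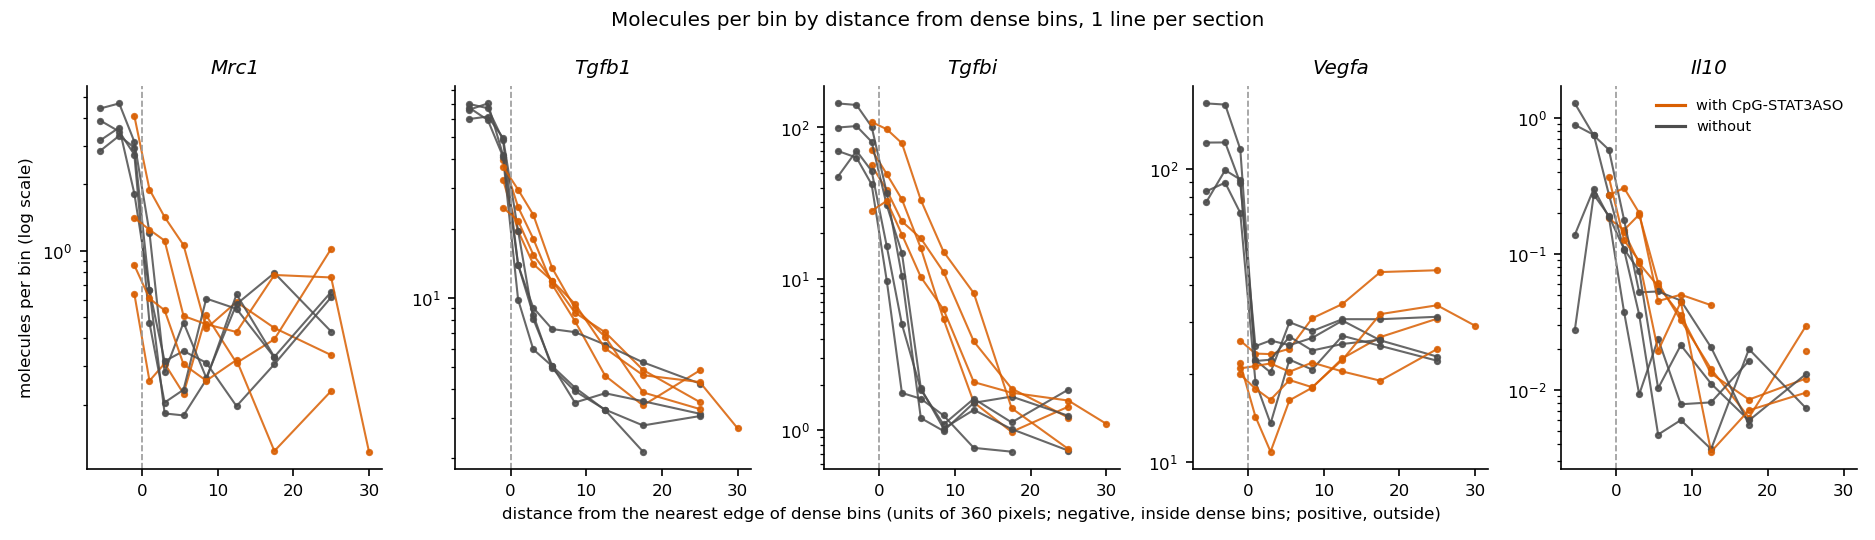
Molecules per bin (log axis) of each gene against distance from the edge of the dense bins in units of 360 pixels, negative inside, for classes with at least 20 bins and values above 0. Each line is a section, orange with CpG-STAT3ASO and grey without; outside the edge Tgfbi falls more slowly in the orange lines, while Vegfa shows no fall with distance outside the edge in either set.

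The profile over distance set the sections with CpG-STAT3ASO apart for Tgfbi. In the first 2 bins inside the dense edge Tgfbi had 66.1 ± 33.6 molecules per bin with CpG-STAT3ASO and 68.8 ± 27.1 without it (SD, n = 4 each, as in the values that follow). At 2 to 4 bins outside the edge it had 38.9 ± 27.1 molecules with CpG-STAT3ASO and 8.01 ± 5.78 without it. At 4 to 7 bins it had 19.5 ± 9.74 with CpG-STAT3ASO, where the lowest section had 10.3, and 1.64 ± 0.317 without it, where the highest had 1.89. At 7 to 10 bins it had 9.48 ± 4.52 with CpG-STAT3ASO and 1.09 ± 0.117 without it. The sets came close at 15 to 20 bins, with 1.51 ± 0.410 where CpG-STAT3ASO was given and 1.13 ± 0.396 where it was not. Dense bins are few and scattered in sections with CpG-STAT3ASO, so a distance there is not measured from a structure like that of the other sections.

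Tgfb1 had a shallower profile of the same kind. At 4 to 7 bins outside the dense edge it had 12.1 ± 0.900 molecules per bin with CpG-STAT3ASO and 5.57 ± 1.15 without it, and at 7 to 10 bins 8.73 ± 0.632 with CpG-STAT3ASO and 4.63 ± 1.64 without it. Vegfa differed between the sets inside the dense edge, with 22.1 ± 2.67 molecules per bin in the first 2 bins with CpG-STAT3ASO and 92.0 ± 18.8 without it. Outside the edge it had 19.2 ± 4.005 in the first 2 bins with CpG-STAT3ASO and 22.0 ± 2.48 without it. Mrc1 had 1.75 ± 1.59 molecules per bin in the first 2 bins inside the edge with CpG-STAT3ASO and 2.65 ± 0.578 without it, ranges too wide to separate.

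**Figure D3:**
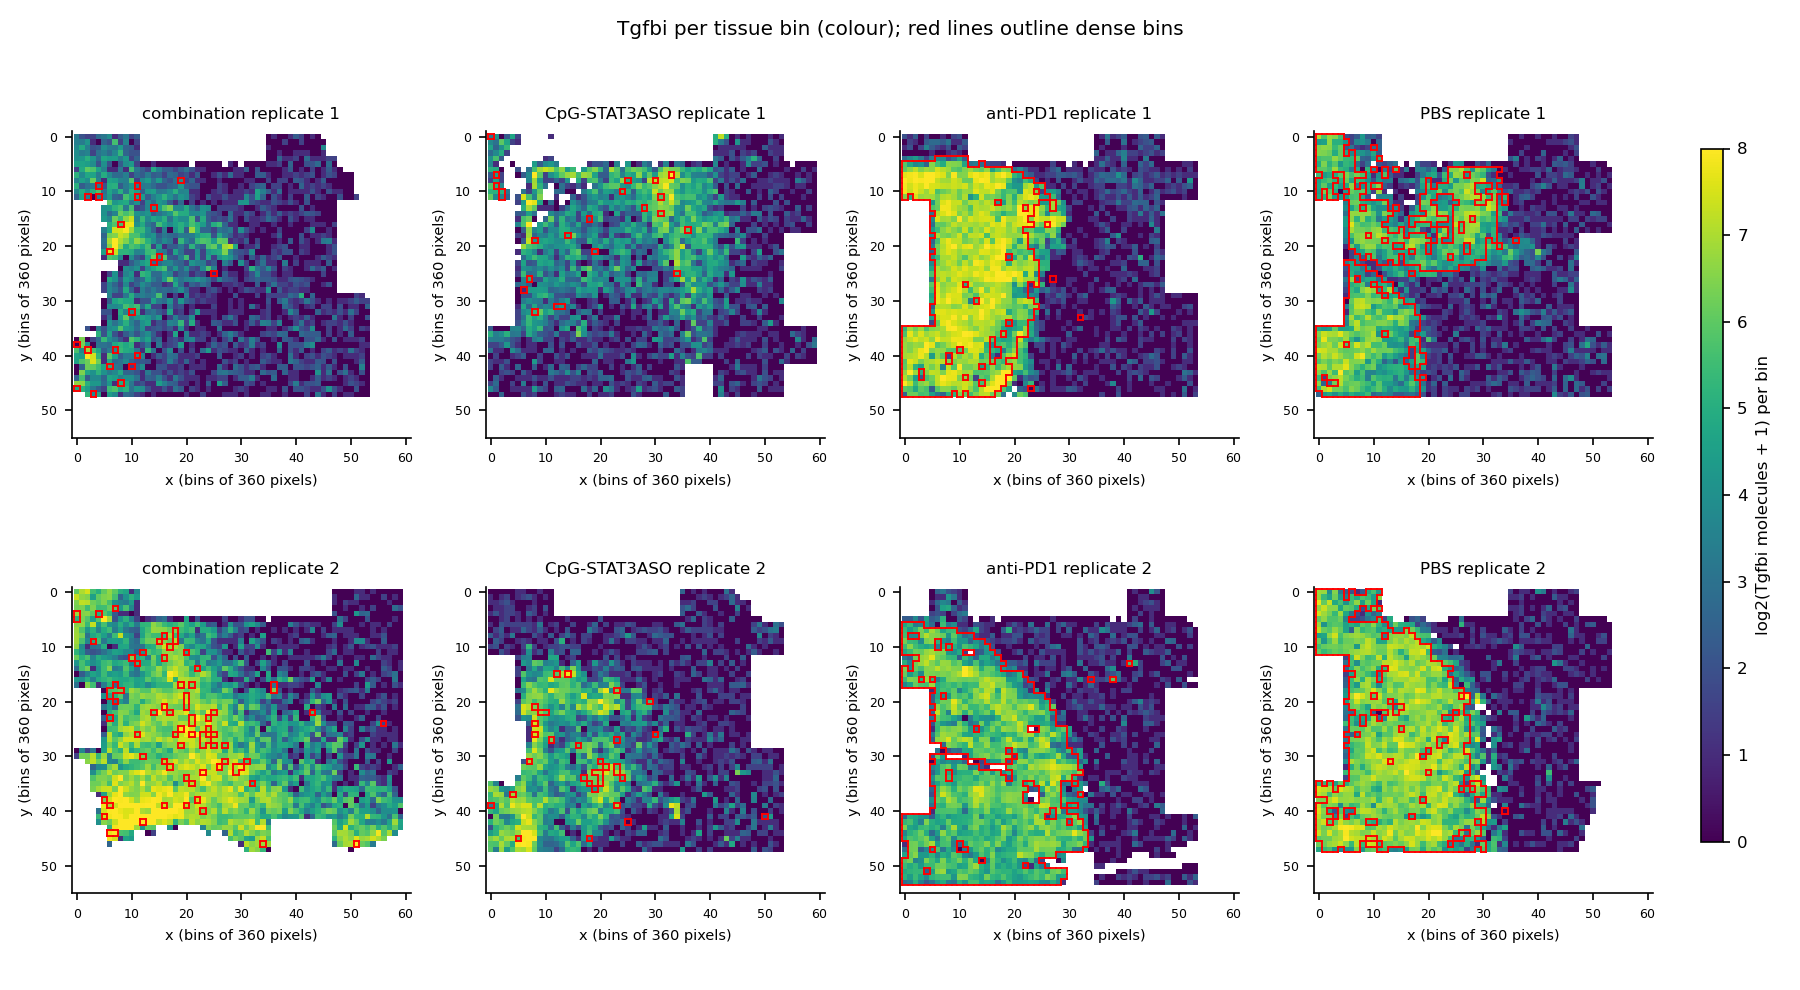
Maps of the 8 sections in which each square is a tissue bin coloured by log2(Tgfbi molecules + 1), with dense bins outlined in red. Without CpG-STAT3ASO Tgfbi fills the outlined area, which holds 84.1 to 95.001% of its molecules; with CpG-STAT3ASO 3.15 to 6.73% lie in outlined bins.

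Most Tgfbi thus lay outside dense bins where CpG-STAT3ASO was given. Dense bins held 3.15 and 6.73% of its molecules in the combination and 4.27 and 6.05% with CpG-STAT3ASO, shares bounded by the small number of dense bins. Low-proliferation bins held 51.5 and 25.3% of Tgfbi in the combination and 51.6 and 33.9% with CpG-STAT3ASO, against 2.73 and 2.26% with anti-PD1 and 4.43 and 2.14% with PBS.

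Low-proliferation bins were numerous enough to compare between all sections, at 970 to 1818 in each, but their marker content differed between the sets, as given below. Tgfbi had 5.56 and 26.1 molecules per low-proliferation bin in the combination and 9.23 and 8.37 with CpG-STAT3ASO, against 2.67 and 1.34 with anti-PD1 and 1.85 and 2.16 with PBS. All 4 sections with CpG-STAT3ASO were above the other 4, and the means were 12.3 ± 9.32 with CpG-STAT3ASO and 2.004 ± 0.557 without it (SD, n = 4 each). By share Tgfbi rose 4.28-fold with CpG-STAT3ASO (log2 difference 2.10, SE 0.38, limma adjusted p = 0.0075), and per bin 5.29-fold (2.40, SE 0.50, adjusted p = 0.0226).

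By share Tgfbi was the only 1 of the 5 to pass in low-proliferation bins, where 9.38% of all genes did (9 of 96, all higher). The other 8 were the macrophage receptor Adgre1 (log2 difference 1.97), the scavenger receptor Msr1 (2.84), the lysosomal glycoprotein Gpnmb (1.75), the chemokines Ccl22 (2.24), Ccl3 (1.67) and Ccl5 (3.37), the cytokine receptor chain Csf2rb (1.34) and the leukocyte antigen Ptprc (1.27). The median gene stood at 0.41 by share and 0.72 per bin. The Tgfbi call was lost without CpG-STAT3ASO replicate 1 (1.93, limma adjusted p = 0.0558), and without combination replicate 2, its highest section, the difference was 1.75 (adjusted p = 0.0134).

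Tgfb1 had 7.39 and 10.1 molecules per low-proliferation bin in the combination and 7.13 and 7.23 with CpG-STAT3ASO, against 4.15 and 4.25 with anti-PD1 and 4.199 and 5.61 with PBS. The 4 sections with CpG-STAT3ASO were above the other 4. Per bin Tgfb1 rose 1.74-fold (log2 difference 0.80, SE 0.19, limma adjusted p = 0.0259), in a comparison in which 16.7% of all genes passed. By share it did not pass (0.49, SE 0.28, adjusted p = 0.318).

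Vegfa had 24.7 and 19.9 molecules per low-proliferation bin in the combination and 20.2 and 31.2 with CpG-STAT3ASO, against 28.9 and 24.4 with anti-PD1 and 25.7 and 22.4 with PBS. The sets overlapped, and Vegfa did not pass by share (log2 difference -0.41, SE 0.33) or per bin (-0.10). Mrc1 had 0.606 and 0.280 molecules per low-proliferation bin in the combination and 0.596 and 0.310 with CpG-STAT3ASO, against 0.462 and 0.397 with anti-PD1 and 0.321 and 0.338 with PBS, with the other sections lying between the high and low pairs. Il10 had 36 and 82 molecules in all low-proliferation bins of the combination and 44 and 66 with CpG-STAT3ASO, against 16 and 15 with anti-PD1 and 22 and 20 with PBS. Per bin the sets overlapped, with 0.0198 Il10 molecules in combination replicate 1 and 0.0206 in PBS replicate 2, and the differences of 0.75 by share and 1.05 per bin did not pass (limma adjusted p = 0.318 and 0.187).

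Macrophage markers and proliferation genes were also higher in these bins. The 6 macrophage markers on the panel, none at 0, summed to 41.6 to 61.4 molecules per low-proliferation bin with CpG-STAT3ASO and 26.1 to 34.2 without it. Among them is Csf1r, which is also a marker of microglia. The 2 microglial markers on the panel summed to 33.9 to 41.9 with CpG-STAT3ASO and 24.2 to 35.0 without it, and overlapped. The 3 proliferation genes summed to 2.07 to 4.24 with CpG-STAT3ASO and 1.34 to 1.85 without it, although the class allows under 10 molecules of Mki67 and Birc5. By share the macrophage markers overlapped slightly, at 45230 to 81047 CPM with CpG-STAT3ASO and 35842 to 45335 CPM without it. Dendritic cell markers summed to 11.6 to 35.7 molecules per bin with CpG-STAT3ASO and 5.71 to 12.8 without it. Their part in the Tgfbi and Tgfb1 results was not tested.

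**Figure D4:**
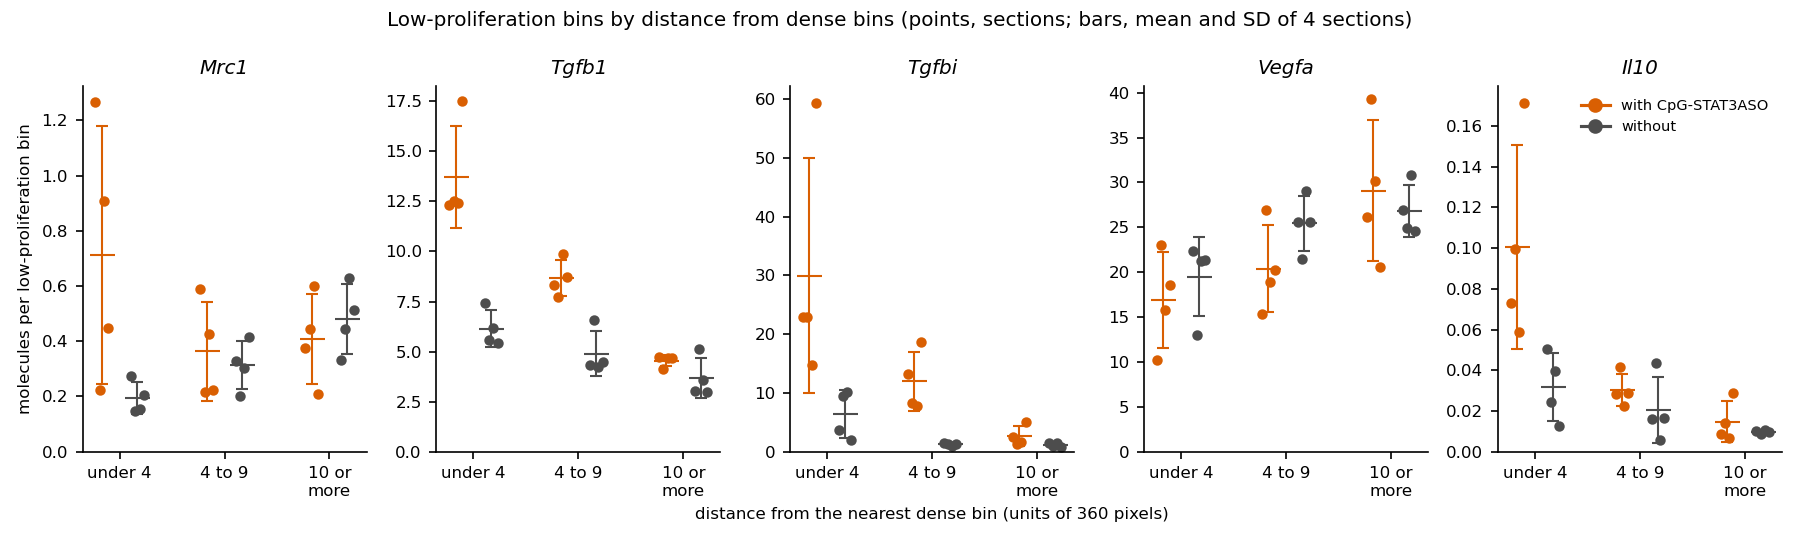
Molecules per low-proliferation bin of each gene by zone outside the dense bins, from margin to distant; points are sections and bars the mean and SD of 4. Tgfbi and Tgfb1 separate with CpG-STAT3ASO near the dense bins, and Vegfa overlaps in each zone.

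Split by distance from the dense bins, the difference lay close to them. In low-proliferation bins at the margin Tgfbi had 29.99 ± 19.9 molecules per bin with CpG-STAT3ASO and 6.37 ± 4.09 without it (SD, n = 4 each). In the near zone, 4 to 9 bins away, it had 7.79 and 18.6 in the combination and 13.2 and 8.34 with CpG-STAT3ASO, against 1.02 and 1.36 with anti-PD1 and 1.42 and 1.22 with PBS. No section overlapped there, and the ratio of the means was 9.56. At 10 or more bins the sets overlapped, at 2.63 ± 1.74 molecules per bin with CpG-STAT3ASO and 1.21 ± 0.361 without it.

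For Tgfb1 the ratio of the means was 2.23 at the margin, 1.77 in the near zone and 1.23 in distant bins. Mrc1 had 0.712 ± 0.468 molecules per margin bin with CpG-STAT3ASO and 0.194 ± 0.0584 without it, and in distant bins 0.408 ± 0.163 with CpG-STAT3ASO and 0.480 ± 0.126 without it. Over all tissue bins of the near zone, whatever their proliferation class, macrophage markers summed to 56.2 to 79.5 molecules per bin with CpG-STAT3ASO and 28.3 to 41.6 without it, and proliferation genes to 8.54 to 16.9 with CpG-STAT3ASO and 1.74 to 4.77 without it. A fit on low-proliferation bins 10 or more bins away, added after the data were seen, called no gene with limma, where 7 genes by share and 10 per bin had an unadjusted p under 0.05. Tgfbi stood at 0.71 by share there (adjusted p = 0.692) and at 0.96 per bin (adjusted p = 0.396).

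Inside dense bins Vegfa had a larger difference per bin than Mrc1, Tgfb1 and Tgfbi. It had 19.9 and 20.8 molecules per dense bin in the combination and 21.7 and 25.9 with CpG-STAT3ASO, against 92.3 and 147 with anti-PD1 and 102 and 80.9 with PBS. Low-proliferation bins had 24.7 and 19.9 in the combination and 20.2 and 31.2 with CpG-STAT3ASO, so in 2 of these 4 sections the dense value was above the low-proliferation value and in 2 below it. Vegfa was 4.69-fold lower per dense bin with CpG-STAT3ASO (log2 difference -2.23, SE 0.27, limma adjusted p = 0.000969). By share its difference was -0.69 (SE 0.40, adjusted p = 0.207), which did not pass.

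Tgfb1 had 24.7 and 37.2 molecules per dense bin in the combination and 32.7 and 39.8 with CpG-STAT3ASO, against 57.0 and 53.9 with anti-PD1 and 52.4 and 59.3 with PBS, again without overlap. It fell by 0.75 on the log2 scale per bin (SE 0.26, limma adjusted p = 0.0479) and did not pass by share (0.79, SE 0.28, adjusted p = 0.0614), so the 2 measures had opposite signs. Tgfbi had 28.1 and 109 molecules per dense bin in the combination and 56.2 and 71.2 with CpG-STAT3ASO, against 127 and 56.4 with anti-PD1 and 57.5 and 92.6 with PBS, and overlapped. By share Tgfbi rose by 1.13 (SE 0.36, limma adjusted p = 0.0433), a call that was lost when any of the 8 sections other than combination replicate 1 was left out (0.88 to 1.33). It was also lost with bins of 180 pixels (0.87) and with limits of 20 and 200 molecules for the classes (1.21). The per-bin difference of Tgfbi was -0.41. Mrc1 had 1.41 and 0.859 molecules per dense bin in the combination and 4.09 and 0.636 with CpG-STAT3ASO, against 4.07 and 3.26 with anti-PD1 and 2.48 and 3.12 with PBS, and passed in neither measure.

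In dense bins 37.5% of all genes passed by share and 42.7% per bin. Proliferation genes summed to 159 to 177 molecules per dense bin with CpG-STAT3ASO and 398 to 692 without it, and macrophage markers to 129 to 193 with CpG-STAT3ASO and 43.8 to 80.3 without it. Their part in the Vegfa and Tgfb1 results was not tested. Il10 had 0 to 21 molecules in the dense bins of a section with CpG-STAT3ASO, too few to compare. In intermediate bins, with 10 to 99 molecules of Mki67 and Birc5, none of the 5 genes passed, where 4.3% of all genes did by share and 3.23% per bin with limma.

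Mrc1 was detected in a smaller percent of tissue bins in each section with CpG-STAT3ASO, where a section held 787 to 2016 Mrc1 molecules, against 2371 to 4177 without it. At least 1 Mrc1 molecule was found in 24.0 and 24.0% of tissue bins in the combination and in 27.6 and 17.6% with CpG-STAT3ASO, against 43.6 and 47.8% with anti-PD1 and 38.1 and 47.1% with PBS. The sets did not overlap, as for 21% of all genes, and the means were 23.3 ± 4.14% with CpG-STAT3ASO and 44.2 ± 4.43% without it (SD, n = 4 each). The difference of -20.9 percentage points had an exact permutation p of 0.0286 (two-sided), the smallest that 4 sections against 4 allow, and 0.136 after Benjamini-Hochberg adjustment over all 100 genes. The 1% of tissue bins richest in Mrc1 held 21.5 to 29.7% of its molecules with CpG-STAT3ASO and 10.5 to 14.2% without it. For Tgfb1, Vegfa, Tgfbi and Il10 the percent of bins with a molecule overlapped between the sets. With bins of 180 pixels that of Vegfa did not overlap, at 80.0 ± 5.48% with CpG-STAT3ASO and 88.0 ± 1.37% without it (SD, n = 4 each), a difference of -7.98 points, against -0.83 at 360 pixels. Its exact permutation p was 0.0286 (two-sided), the smallest possible, and 0.119 after adjustment over all 100 genes. The share of all genes without overlap was counted at 360 pixels only, so whether the Vegfa result at 180 pixels is unusual cannot be told. For Il10 the richest 1% of bins of a section held 38.0 to 59.5% of its 84 to 752 molecules. False-positive codes with at least 50 molecules had medians of 20.4 to 32.6% and highest values of 41.7 to 53.8% in the 8 sections. No code was above Il10 in PBS replicate 2, anti-PD1 replicate 1, CpG-STAT3ASO replicate 2 or combination replicate 1. In each of the other sections 1 or 2 codes were above it.

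Genes of the same pathways were read from lists chosen with earlier results of these sections known. Of the alternative macrophage activation list 5 of 16 genes are on the panel, and in whole sections Msr1 (log2 difference 1.18, limma adjusted p = 0.0287) and the secreted phosphoprotein Spp1 (1.83, adjusted p = 0.0041) rose with CpG-STAT3ASO. Gpnmb fell by 3.24 (limma adjusted p = 2.68e-05), and Mrc1 and the arginase Arg1 did not pass, where 43% of all genes did. The median of the 5 was 0.21, against 0.63 for all genes. In low-proliferation bins the same list had Msr1 (2.84, limma adjusted p = 0.0047) and Gpnmb (1.75, adjusted p = 0.0266) higher and none lower, with a median of 1.19 against 0.41. Of all genes 9.38% passed there (9 of 96, all higher). Gpnmb thus fell across whole sections and rose in the low-proliferation bins of the same sections.

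Of the TGF-beta list 5 of 18 genes are on the panel, Tgfb1, Tgfbi and the regulatory T cell genes Foxp3, Ikzf2 and Il2ra. In whole sections Ikzf2, which encodes the transcription factor Helios, rose (1.11, limma adjusted p = 0.0154) and the other 4 did not pass, with a median of 0.45. Of all genes 43% passed there, with a median of 0.63. In low-proliferation bins Tgfbi alone of the 5 passed, where 9.38% of all genes did. At the margin of sections without CpG-STAT3ASO 4 of the 5 rose by share, among them Foxp3 (1.87) and Il2ra (2.48), with a median of 1.87 against 0.92, where 62.4% of all genes passed (46 of 93 higher). Of the IL-10 and STAT3 list 3 of 14 genes are on the panel. In whole sections Il6, a cytokine that acts through STAT3, alone of the 3 rose with CpG-STAT3ASO (1.46, limma adjusted p = 0.038). There 43% of all genes passed, and the median of the list was 0.02, against 0.63 for all genes. Stat3 itself fell by 1.04 in dense bins (limma adjusted p = 0.0463), where 1 other gene of the list rose. Of all genes 37.5% passed in dense bins (31 of 96 higher and 5 lower). Of the VEGF and hypoxia list only Vegfa is on the panel, 1 of 15.

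The 11 genes of the opposing, inflammatory list are all on the panel. In whole sections 6 rose with CpG-STAT3ASO, the costimulatory ligands Cd80 (log2 difference 2.12) and Cd86 (1.62), the interleukin-12 subunits Il12a (1.93) and Il12b (2.75), Il6 (1.46) and Tnf (1.69). The interferon-induced chemokine Cxcl10 fell by 2.59, and 4 did not pass. Of all genes 43% passed (35 of 100 higher), and the median of the list was 1.46, against 0.63 for all genes. In dense bins the same 6 rose and none fell, where 37.5% of all genes passed (31 of 96 higher), with a median of 1.93 against 0.75. In low-proliferation bins, where Tgfbi rose, 0 of the 11 passed with limma, as did only 9.38% of all genes (9 of 96). An unadjusted p under 0.05 was found for 4 of the 11 (Cd80, Ifng, Il12b and Tnf) and for 25 of all 96. The median of the list was 0.54, against 0.41 for all genes.

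The 5 genes were also compared in pairs over tissue bins. Spearman's rho was computed between genes across the bins of a section, after removing rank dependence on the total molecules of the bin, and is given as the median of 8 sections with the range. Bins come from the same section and neighbouring bins share cells, so these values carry no test. Tgfb1 and Tgfbi had 0.48 (0.40 to 0.63), with 0.50 to 0.63 in sections with CpG-STAT3ASO and 0.40 to 0.46 without it. Mrc1 had 0.31 with Tgfbi (0.09 to 0.35), 0.24 with Tgfb1 (0.12 to 0.31) and 0.03 with Vegfa (-0.15 to 0.07). Vegfa had -0.24 with Tgfb1, and its range with CpG-STAT3ASO was -0.40 to -0.31, against -0.16 to -0.05 without it.

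Vegfa had -0.21 with Tgfbi, at -0.36 to -0.23 with CpG-STAT3ASO and -0.20 to 0.01 without it. These negative values hold only once the bin total is removed. Before that Vegfa had medians of 0.32 with Tgfb1 and 0.30 with Tgfbi. With Tgfb1 it then had -0.14 to 0.10 with CpG-STAT3ASO and 0.54 to 0.74 without it. With Tgfbi it had -0.17 to 0.10 with CpG-STAT3ASO and 0.49 to 0.72 without it. Il10 had 0.13 with Tgfb1, 0.11 with Tgfbi, 0.07 with Mrc1 and -0.05 with Vegfa, weak values for so rare a transcript. The false-positive codes gave a scale for such values. Their summed molecules had 0.20 with Vegfa (0.23 to 0.33 with CpG-STAT3ASO and 0.02 to 0.16 without it), -0.23 with Tgfb1, -0.23 with Tgfbi, -0.06 with Mrc1 and -0.03 with Il10. The codes had -0.28 to -0.19 with Tgfb1 where CpG-STAT3ASO was given and -0.26 to -0.15 where it was not. The values of Vegfa with Tgfb1 were thus more negative than those of the codes in sections with CpG-STAT3ASO. Without it Vegfa lay nearer 0 than the codes, apart from an overlap at the end of the ranges. With Tgfbi the codes had -0.30 to -0.15 where CpG-STAT3ASO was given and -0.27 to -0.12 where it was not. Both ranges overlapped those of Vegfa with Tgfbi. The positive value of Tgfb1 with Tgfbi was larger than any that codes had with the 5. In low-proliferation bins alone Tgfb1 and Tgfbi had 0.43 to 0.55 with CpG-STAT3ASO and 0.17 to 0.21 without it.

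Among the whole panel, the genes whose bins were most like those of Tgfbi by mean rho over 8 sections were Cd74, the invariant chain of antigen presentation (0.61), Msr1 (0.54) and Gpnmb (0.50). For Tgfb1 they were Cd74 (0.62), Ptprc (0.58) and Csf2rb (0.53). For Mrc1 they were Msr1 (0.29), Tgfbi (0.27) and Cd74 (0.27). For Vegfa they included Crbn (0.46) and Dnmt1 (0.43), both expressed in many cell types. For Il10 no gene passed 0.12, the value with Tgfb1.

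Distances between molecules gave a finer scale than bins. Around up to 3000 molecules of a gene in each section, the density of other molecules within 100 pixels was set against a ring at 400 to 600 pixels as a log2 ratio, averaged over 8 sections. Around Tgfbi molecules the 3 highest ratios were those of Mrc1 (0.96, range 0.50 to 1.62), Il1b, an inflammatory cytokine (0.96), and Xcr1, a receptor of cross-presenting dendritic cells (0.93), where all genes together had 0.44. Around Mrc1 they were Xcr1 (1.52), Ccr7 (1.43) and Il12b (1.29), all known from dendritic cells, but each varied from below 0 to above 2 between sections. Around Tgfb1 they included Nos2 (1.13) and Il2ra (1.13).

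Around Vegfa they included S1pr1, a sphingosine phosphate receptor (1.06), and Flt3 (1.03). Within 50 pixels the highest ratios around Mrc1 were those of the myeloid genes Msr1 (2.20), Adgre1 (1.99) and Csf1r (1.86). Tgfbi had 1.67 around Mrc1 within 50 pixels (1.09 to 2.40) and Tgfb1 1.35, while Vegfa had 0.44, below the 0.86 of all genes. Around Vegfa within 50 pixels Mrc1 had 0.39, Tgfbi 0.28 and Tgfb1 0.22, against 0.77 for all genes. The ratios of Tgfbi and Tgfb1 around Mrc1 were thus above that of all genes. The ratios given with Vegfa were above 0 on average but below that of all genes, a description with no test.

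**Figure D5:**
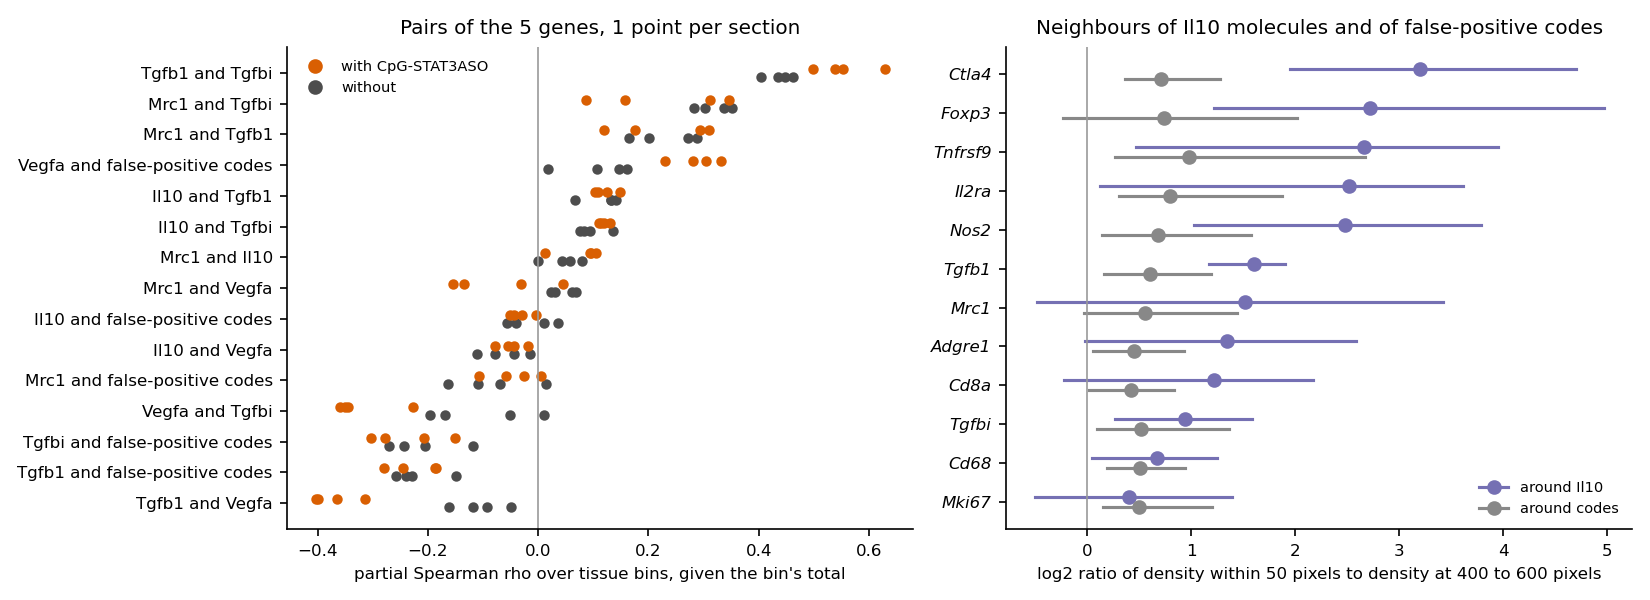
Left, Spearman's rho between 2 genes over tissue bins given the bin total, a point per section, including pairs with the false-positive codes; Tgfb1 with Tgfbi is highest, at a median of 0.48. Right, log2 ratio of the density within 50 pixels to that at 400 to 600 pixels around Il10 molecules and around false-positive codes. Points and lines give the mean and range over 8 sections, and the most abundant code is left out. Ctla4 has 3.20 around Il10 and 0.71 around codes.

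Il10 molecules were few, and their surroundings are set here against those of false-positive codes. The most abundant code was left out here, whereas the correlations over bins summed all codes. Within 50 pixels of 2460 Il10 molecules the checkpoint receptor Ctla4 had a log2 ratio of 3.20, against 0.71 around 16314 code molecules, and was higher around Il10 in 8 of 8 sections. Foxp3, the regulatory T cell factor, had 2.72 around Il10 and 0.73 around codes, again in 8 of 8. Il2ra had 2.52 against 0.79 (7 of 8 sections), the costimulatory receptor Tnfrsf9 2.66 against 0.98 (7 of 8) and the inducible nitric oxide synthase Nos2 2.48 against 0.68 (8 of 8). Of the other 4 genes Tgfb1 had 1.61 around Il10 and 0.60 around codes (8 of 8), Tgfbi 0.94 around Il10 and 0.52 around codes (8 of 8) and Mrc1 1.52 around Il10 and 0.55 around codes (5 of 8). The macrophage marker Adgre1 had 1.34 around Il10 and 0.45 around codes (7 of 8), and Cd68, also a macrophage marker, had 0.67 and 0.51 (5 of 8). The T cell gene Cd8a had 1.22 around Il10 and 0.42 around codes (7 of 8). Mki67 had 0.40 around Il10 and 0.50 around codes and was higher around Il10 in 3 of 8 sections. Ctla4, Foxp3, Il2ra, Tnfrsf9 and Nos2 were picked because their ratios around Il10 were high, so a gap to the codes is built into that choice, and the ratios carry no test.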

How the data were processed

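Per the labels, the deposited files come from Resolve single-molecule in situ hybridization of hemisphere sections, and each lists molecules as called by the authors with x, y and z positions in pixels and other target names. The authors deposited no counts; Seurat 4.2.0 appears in the submitters' processing notes with no role stated. How spots were called and how large a pixel is were not found in the labels. The 28 FP targets were taken as false-positive codes.

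Molecules were counted per bin and region. The log2 of CPM plus 1, or of molecules per bin, was fitted for genes averaging 10 or more molecules a section by limma lmFit and eBayes with trend (limma 3.58.1, R 4.3.3), with Mki67 and Birc5 left out of fits on bin classes. Adjusted p values are two-sided Benjamini-Hochberg values over all genes tested, with a threshold of 0.05. Comparisons within sections had the section as block. Shares of bins were compared by an exact permutation test, adjusted over 100 genes although the plan named the 5 alone. Replicate numbers did not pair the sections: the correlation of replicate differences between treatments ran from -0.5254 to 0.5892 over 6 pairs of treatments. Neighbour ratios had 0.5 added, and those around false-positive codes left out the most abundant code. Named genes are the 5, list members, called genes and the 3 most alike or nearest genes of each, of which some are not reported here. The 5 genes and all lists were chosen with earlier results of these data known. Alternatives were other bin sizes, limits, scalings, filters and left-out sections. Python 3.11.15 with numpy 2.4.6, pandas 2.3.3, scipy 1.17.1, numba 0.67.0 and matplotlib 3.10.9 was used, and the fits were tested on simulated data.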

Additional observations from a re-analysis of the deposited data

Results flagged for a closer look

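Among 4 sections with or without CpG-STAT3ASO, 1 section stood far from the other 3 (its gap over the range above Dixon's critical value for 4 samples) in 3 of 48 groups of member values, where chance gives about 1 in 20. Tgfb1 had 10.1 molecules per low-proliferation bin in combination replicate 2, against 7.39 in the nearest section with CpG-STAT3ASO. Tgfb1 had 5.61 molecules per low-proliferation bin in PBS replicate 2, against 4.25 in the nearest section without CpG-STAT3ASO. Vegfa had 81.2 molecules per tissue bin in anti-PD1 replicate 2, against 51.8 in the nearest section without CpG-STAT3ASO.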

How the results depend on the processing

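Of 343 alternatives to 24 differences of the 5 genes, 282 kept direction and side of the threshold, 27 lost a call, 5 gained a call and 29 reversed; for those that moved, the cause was not tested. With molecules per tissue bin in place of shares, the whole-section differences with CpG-STAT3ASO were -1.37 for Il10, -1.14 for Tgfb1, -1.29 for Vegfa and -0.93 for Tgfbi, and with median-of-ratios scaling -0.65, -0.41, -0.56 and -0.20. Molecules per bin also reversed Mrc1 in low-proliferation bins (0.16), Mrc1 (-1.25), Tgfb1 (-0.75) and Tgfbi (-0.41) in dense bins, Vegfa in dense against low-proliferation bins (2.03), Mrc1 at the margin (0.0081) and Vegfa in distant low-proliferation bins (0.083); limits of 20 and 200 gave -0.0030 for Mrc1 in dense bins. The percent of bins with Tgfb1 moved to -1.01 points with bins of 180 pixels and -0.016 with 720, and that with Tgfbi to -6.44 with 180 and -0.23 with at least 2 molecules; that with Vegfa was -7.98 with 180 and -0.83 with 360. The rho of Tgfb1 with Tgfbi was 0.40 at 180 pixels and 0.58 at 720.

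Per bin or per tissue bin, counts of called genes were 12 for CpG-STAT3ASO against PBS (25 by share), 4 for the combination against PBS (18 by share), 14 for the combination against anti-PD1 (28 by share), 16 in low-proliferation bins (9 by share) and 91 for dense against low-proliferation bins (52 by share). Median-of-ratios scaling gave 13, 11 and 13 for the first 3. Anti-PD1 against PBS called 1 gene, and 0 with a pseudocount of 10, a mean of at least 50 molecules, molecules per tissue bin or eBayes without trend. Only low-proliferation bins at least 10 bins away called 0 by share and per bin, an alternative chosen after seeing the data. Intermediate bins called 4 genes, 20 at 180 pixels and 27 at limits of 20 and 200. Interior against edge called 0 genes, 10 at 720 pixels and 2 at limits of 5 and 50.

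Without 1 section the counts ran from 30 to 47 for CpG-STAT3ASO averaged over anti-PD1, 0 to 1 for anti-PD1 averaged over CpG-STAT3ASO, 5 to 33 for CpG-STAT3ASO against PBS, 6 to 31 for the combination against PBS, 9 to 34 for the combination against anti-PD1, 0 to 1 for anti-PD1 against PBS, 0 to 1 for the combination against CpG-STAT3ASO and 0 to 2 for the interaction. They ran from 3 to 20 in low-proliferation bins, 2 to 10 in intermediate bins, 23 to 41 in dense bins, 37 to 59 for dense against low-proliferation bins, 0 to 2 for interior against edge and 32 to 61 at the margin. CpG-STAT3ASO against PBS fell most without PBS replicate 2 (5), CpG-STAT3ASO replicate 1 (6) or replicate 2 (10). The combination against PBS called 6 genes when PBS replicate 2 was left out, 11 when combination replicate 1 was and 31 when combination replicate 2 was. The combination against anti-PD1 called 9 without anti-PD1 replicate 2, 15 without replicate 1, 14 without combination replicate 1 and 18 without either CpG-STAT3ASO section. Low-proliferation bins called 3 without CpG-STAT3ASO replicate 1, 4 without anti-PD1 replicate 2 and 20 without combination replicate 1. Intermediate bins called 10 without anti-PD1 replicate 1 and 2 without combination replicate 1, dense bins 23 without anti-PD1 replicate 2 (36 with all), and the margin 32 without PBS replicate 1 (58 with all). Without 1 section the whole-section differences ran from -0.25 to 0.29 for Il10, -0.54 to 0.41 for Mrc1 and -0.19 to 0.44 for Vegfa, that of Mrc1 from -0.63 to 0.35 in low-proliferation and -0.58 to 1.16 in dense bins, that of bins with Tgfbi from -1.14 to 3.25 points and that of bins with Mrc1 from -22.9 to -19.0 points.

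With the replicate number as block, which does not pair these sections, the counts were 41 for CpG-STAT3ASO averaged over anti-PD1, 1 for anti-PD1 averaged over CpG-STAT3ASO, 27 for CpG-STAT3ASO against PBS, 24 for the combination against PBS, 31 for the combination against anti-PD1, 1 for anti-PD1 against PBS, 0 for the combination against CpG-STAT3ASO and for the interaction, 7 in low-proliferation, 5 in intermediate and 29 in dense bins. Under this block Tgfbi in dense bins lost its call (limma adjusted p = 0.0626), and no other of the 5 changed its call. Dense bins at 720 pixels, and interior against edge at 180 pixels and at limits of 20 and 200, were not run because a section had no bins left. With 2 sections per treatment and few Il10 molecules, only large differences could pass.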
